A study of Mus musculus with 10 samples.

Results

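The circadian clock genes described here are Bhlhe40, Nfil3, Per1, Per2, Cry1, Cry2, Nr1d2, Dbp, Tef and Clock, 10 of the 15624 genes in the count table, found by gene symbol. They were measured in RNA-seq libraries of tumour epithelium, cut by laser capture microdissection from frozen sections of KPFSR pancreatic ductal adenocarcinomas in mice. Established tumours had been treated with corn oil, the vehicle (n = 4), or with tamoxifen (n = 6). The labels give the strain only as KPFSR. Knowledge of this model, not the labels, adds that all animals of both groups carry a mutant Trp53 allele with a Pdx1-driven Flp recombinase, floxed Slc7a11 and a ubiquitous tamoxifen-activated Cre, so that the deletion of Slc7a11, the cystine transporter gene, is not restricted to the tumour epithelium. The labels used here give no age, sex, dose, duration, time of day or animal number. Because samples are not tied to animals, every p-value reflects variation among these libraries only and is too small if some share an animal.

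In the mammalian clock, CLOCK and ARNTL (BMAL1) form a dimer that binds E-box sequences and switches on the period (Per) and cryptochrome (Cry) genes, whose proteins then repress that dimer. A second loop runs through the nuclear receptors REV-ERB (Nr1d1, Nr1d2) and ROR, which compete for ROR elements in Arntl and other genes. The outputs DBP, TEF and HLF activate D-box sequences, and NFIL3 represses the same sequences. BHLHE40 (DEC1) and BHLHE41 (DEC2) bind E-boxes as repressors. Bhlhe40 is also known as a gene induced by low oxygen, and Nfil3 as a regulator of natural killer cell development.

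Bhlhe40 and Nfil3 were chosen by their higher levels with tamoxifen in these same libraries, and the other 8 were placed beside them as genes of the clock. Differences between tamoxifen and corn oil for the 10 members are therefore given as a description and not as a test. Of the 10 members, 0 passed an FDR of 0.05 in edgeR's quasi-likelihood test, against 0.0384% of the 13006 tested genes. At an unadjusted p under 0.05 there were 2, Bhlhe40 and Nfil3, against 9.7% of tested genes. The same 2 were past the FDR in DESeq2, which called 1.89% of its tested genes, and in limma voom with sample quality weights, which called 9.62%. All 10 members passed the filter on low counts, and the smallest count of any member in any library was 30.

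Slc7a11 stood at 23.2 to 40.1 normalised CPM with corn oil and 5.90 to 19.3 with tamoxifen, so the groups of the targeted gene did not overlap. Library totals ran from 16473902 to 36132316 counts with corn oil and from 6899347 to 19462115 with tamoxifen, with replicate 6 the shallowest. Across genes, the log2 CPM of tamoxifen replicates 1 to 3 had pairwise Pearson's r of 0.921 to 0.963, against at most 0.878 for any other pair of libraries, and whether 1 animal gave all 3 is not stated. Where it matters, a value that merges the 3 into a single sample is added. The 9 ductal epithelial markers were present in every library, with a sum of 14569.6 to 30924 normalised CPM with corn oil and 14085 to 25345 with tamoxifen. Of these 9, 8 were lower with tamoxifen, with a median log2 fold change of -0.39, and 0 passed the FDR in edgeR (2 at an unadjusted p under 0.05). The keratin gene Krt18 averaged 6545 ± 3222 in the corn oil group (SD, n = 4) and 6473 ± 1706 in the tamoxifen group (SD, n = 6), and Krt19 averaged 4807 ± 1710 and 3105 ± 1319. All 9 tested fibroblast markers were above 0, with a median of 0.79 in edgeR but -0.05 in voom, and 0 passed the FDR in edgeR (2 unadjusted). The part of these shifts in the levels of the clock genes was not tested. Markers of lymphocytes and natural killer cells summed to at most 2.01 normalised CPM in any library over the 6 of 10 found in the table, and Cd3g, Cd8a and Ms4a1 were at 0 in every corn oil library.

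Bhlhe40, the E-box repressor, was the most abundant member. With corn oil its level was 172, 239, 158 and 232 normalised CPM in replicates 1 to 4, where normalised CPM is the share of a library's counts scaled by TMM factors. With tamoxifen it ran from 348 in replicate 1 through a median of 507 to 620.2 in replicate 5. The lowest tamoxifen library stood above the highest corn oil library, so the groups did not overlap. The corn oil mean was 200.1 ± 41.5 (SD, n = 4) and the tamoxifen mean 505 ± 100.5 (SD, n = 6). The log2 fold change was 1.34 (SE 0.24), a value reached by 4.87% of tested genes. Its paralog Bhlhe41, also an E-box repressor, did not show this gap, with means of 15.7 ± 4.60 (SD, n = 4) in corn oil and 18.7 ± 9.78 (SD, n = 6) in tamoxifen libraries. Its log2 fold change was 0.25 (SE 0.49), with an adjusted p of 0.932 in edgeR, and 19.0% of its exon bases are shared with Gm43909.

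Nfil3, the D-box repressor, stood at 32.1, 14.1, 31.8 and 20.1 normalised CPM in corn oil replicates 1 to 4. With tamoxifen it ran from 57.8 in replicate 5 through a median of 69.8 to 109 in replicate 4. The groups again did not overlap. The corn oil mean was 24.5 ± 8.95 (SD, n = 4) and the tamoxifen mean 76.0 ± 20.1 (SD, n = 6). The log2 fold change was 1.63 (SE 0.33), a value reached by 3.24% of tested genes. Groups did not overlap for 2 of the 10 members and for 3.23% of tested genes (1.28% with tamoxifen higher), a count from which nothing is read because these 2 were chosen for it. Over the settings tried, the log2 fold change ran from 1.24 to 1.54 for Bhlhe40 and from 1.44 to 1.81 for Nfil3.

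**Figure D1:**
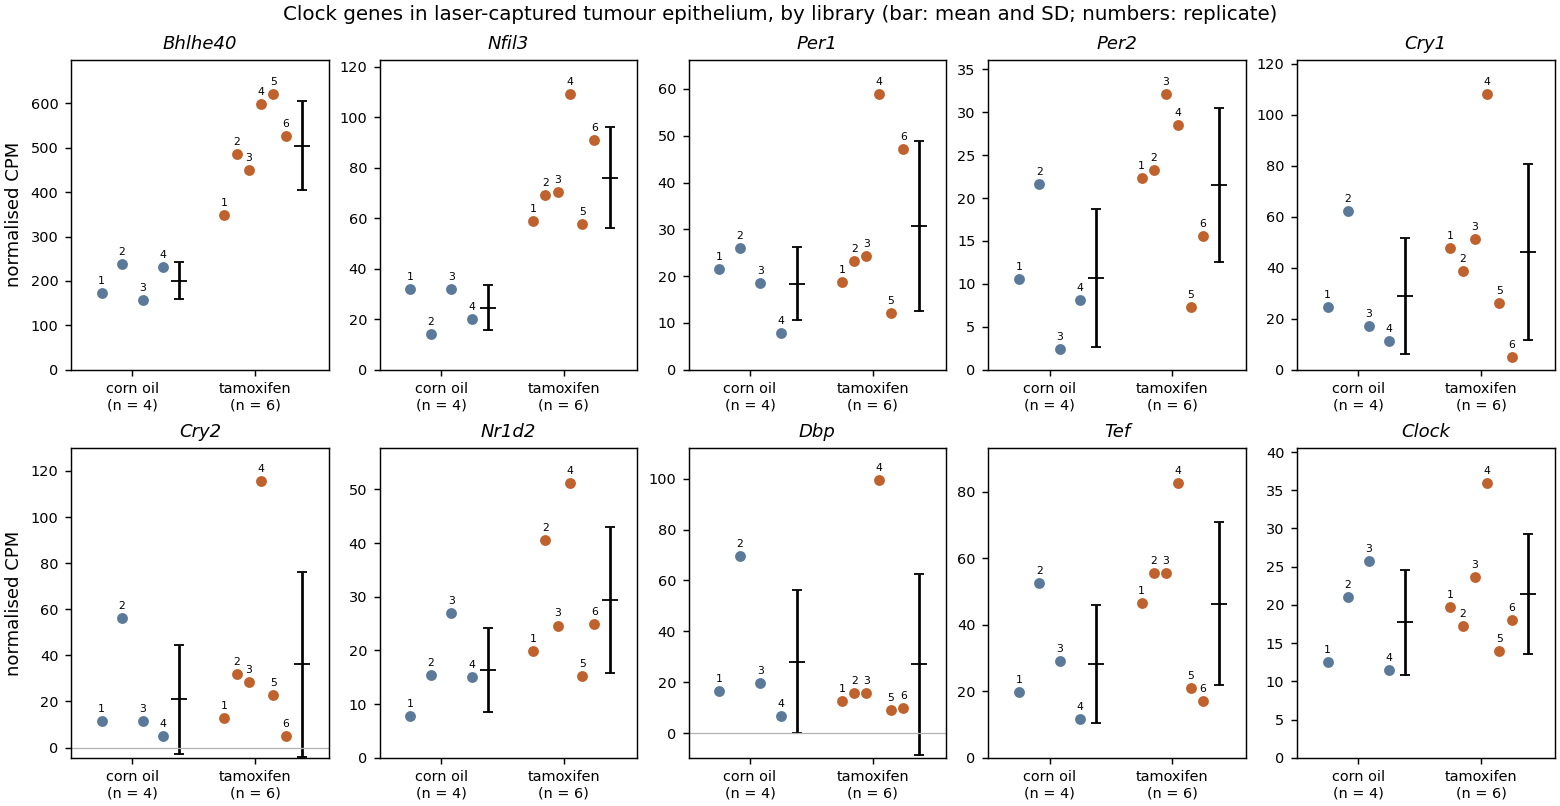
Normalised CPM of the 10 members in each library, 1 panel per gene, with corn oil in blue and tamoxifen in orange; numbers beside points are replicates, and the black bar is the mean with its SD. The lowest tamoxifen library lies above the highest corn oil library for Bhlhe40 (348 against 239) and Nfil3 (57.8 against 32.1), while the groups overlap for the other 8, in which tamoxifen replicate 4 and corn oil replicate 2 are often the highest points.

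The period genes, which encode repressors of the CLOCK dimer, overlapped between groups. Per1 stood at 21.5, 25.9, 18.4 and 7.78 normalised CPM with corn oil and ran from 12.2 through a median of 23.8 to 58.8 with tamoxifen. Tamoxifen replicates 4 and 6 were the 2 libraries above every corn oil library. Its log2 fold change was 0.74 (SE 0.51), but 0.44 without tamoxifen replicate 4, 0.48 without corn oil replicate 4 and 0.38 in voom. Per2 stood at 10.5, 21.6, 2.38 and 8.11 with corn oil and ran from 7.31 in replicate 5 through a median of 22.8 to 32.1 in replicate 3 with tamoxifen. Here 4 of the 6 tamoxifen libraries lay above the corn oil range, and the log2 fold change was 1.01 (SE 0.61). Leaving out corn oil replicate 3 gave 0.68, leaving out replicate 2 gave 1.62, and voom gave 1.54.

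The cryptochromes, partners of the PER proteins in repression, varied widely within groups. Cry1 stood at 24.7, 62.1, 17.0 and 11.4 normalised CPM with corn oil and ran from 4.90 in replicate 6 through a median of 43.2 to 108 in replicate 4 with tamoxifen. Cry2 stood at 11.3, 56.2, 11.7 and 4.95 with corn oil and ran from 5.23 in replicate 6 through a median of 25.7 to 115 in replicate 4. For each of the 2 genes, 1 tamoxifen library lay above the corn oil range. Log2 fold changes were 0.68 (SE 0.67) for Cry1 and 0.78 (SE 0.82) for Cry2. Without tamoxifen replicate 4 they were 0.23 and -0.05, and without corn oil replicate 2 they were 1.38 and 1.96. Without corn oil replicate 4 they were 0.41 and 0.45, and without tamoxifen replicates 1 to 3 Cry2 was at 1.19, so the sign of Cry2 is not settled.

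Nr1d2, which encodes the repressor REV-ERB beta, stood at 7.82, 15.5, 26.9 and 15.1 normalised CPM with corn oil and ran from 15.3 through a median of 24.7 to 51.3 with tamoxifen. Tamoxifen replicates 2 and 4 lay above the corn oil range, and the log2 fold change was 0.85 (SE 0.47). Clock, the activating subunit, stood at 12.6, 21.0, 25.8 and 11.4 with corn oil and ran from 14.0 through a median of 18.8 to 36.0 with tamoxifen. It had a log2 fold change of 0.28 (SE 0.42), which became 0.06 when tamoxifen replicate 4 was dropped. Dropping corn oil replicate 1, 3 or 4 gave 0.14, 0.52 or 0.11.

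Dbp and Tef encode D-box activators, and their groups overlapped. Dbp stood at 16.4, 69.4, 19.8 and 6.90 normalised CPM with corn oil and ran from 8.90 in replicate 5 through a median of 14.1 to 99.5 in replicate 4 with tamoxifen. Apart from corn oil replicate 2 and tamoxifen replicate 4, every library lay between 6.90 and 19.8. Its log2 fold change was -0.06 (SE 0.79), but -1.17 without tamoxifen replicate 4 and 0.91 without corn oil replicate 2, so its sign is not settled. Of the exon bases of Dbp, 18.0% are shared with Sphk2 on the opposite strand, and the library kits do not mark strand, so part of its count may be Sphk2. Tef stood at 19.8, 52.6, 29.2 and 11.6 with corn oil and ran from 17.2 in replicate 6 through a median of 51.0 to 82.8 in replicate 4 with tamoxifen. Its log2 fold change was 0.72 (SE 0.51), with 3 of 6 tamoxifen libraries above the corn oil range. Dropping corn oil replicate 2 or 4 gave 1.20 or 0.46, and dropping tamoxifen replicate 4 gave 0.47.

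The 8 members other than Bhlhe40 and Nfil3 had log2 fold changes of -0.06 to 1.01 with a median of 0.73, and 7 of the 8 were above 0, against a median of -0.01 and 49.3% above 0 over all tested genes. Dropping tamoxifen replicate 4 brought that median to 0.34, and dropping corn oil replicate 4 or 2 to 0.45 or 1.08. Merging tamoxifen replicates 1 to 3 gave 0.79. Against the mean log2 CPM of these 8 in the same library, Bhlhe40 lay 2.76 to 4.65 higher with corn oil and 3.20 to 5.39 higher with tamoxifen, ranges that overlap. Nfil3 lay from 1.31 below (-1.31, replicate 2) to 1.14 above that mean with corn oil and 0.75 to 2.69 above it with tamoxifen, also with overlap.

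Levels were compared between genes after division by exon length, the union of all annotated exons of a gene. Which transcripts were expressed was not measured, so the order depends on this length and is approximate. Before division Clock, with a corn oil mean of 17.7 normalised CPM, stood above Per2, with 10.7. Per kilobase of exon, Bhlhe40 was highest in corn oil libraries at 42.5 ± 8.82 normalised CPM per kilobase (SD, n = 4), and its range did not overlap that of the next gene, Nfil3, at 12.1 ± 4.42. Dbp at 9.40 ± 9.38 and Cry1 at 8.62 ± 6.84 followed. Tef, Cry2, Per1 and Nr1d2 stood between 3.02 and 3.59, and Per2 at 1.82 ± 1.38 and Clock at 1.29 ± 0.502 were lowest. From Nfil3 downward the range of each gene overlapped that of its neighbour. In tamoxifen libraries the order was the same except that Cry1 (13.8 ± 10.4) preceded Dbp (9.03 ± 11.9, SD, n = 6), and Bhlhe40 and Nfil3 reached 107 ± 21.4 and 37.5 ± 9.91.

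The spread within groups also differed between members. The pooled within-group SD of log2 CPM was 0.30 for Bhlhe40, 0.45 for Nfil3 and 0.51 for Clock, against a median of 0.84 over all tested genes. It was 1.34 for Cry1, 1.47 for Cry2, 1.31 for Dbp and 1.01 for Per2. Per1 at 0.81, Nr1d2 at 0.67 and Tef at 0.90 lay nearer that median. Bhlhe40 and Nfil3 were also more abundant, with mean log2 CPM of 8.42 and 5.54 against a median of 4.41 over all tested genes. The part of abundance in their spread was not tested. Genes chosen for groups that stand apart tend to have a narrow spread, so the low values of Bhlhe40 and Nfil3 are a description only.

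Single libraries carried much of the spread of the other members. Tamoxifen replicate 4 was the highest of its group for 7 of the 8 and corn oil replicate 2 for 6 of the 8. Corn oil replicate 4 was lowest for 6 of the 8, tamoxifen replicate 5 for 5 and tamoxifen replicate 6 for 3. Tamoxifen replicate 4 also held the most RNA of fibroblast markers, whose sum over all 10 markers was 1052 normalised CPM there, 133 to 709 in the other tamoxifen libraries and 126 to 467 with corn oil. Its 9 macrophage markers summed to 2207, against 824 to 1297 in the other tamoxifen libraries and 951 to 1421 with corn oil. Corn oil replicate 2, the library with high clock genes in the other group, had the lowest fibroblast sum of all, 126. The part of these cell types in the levels of replicate 4 was not tested, and in tissue sections fewer cells of a type and less RNA per cell cannot be told apart.

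**Figure D2:**
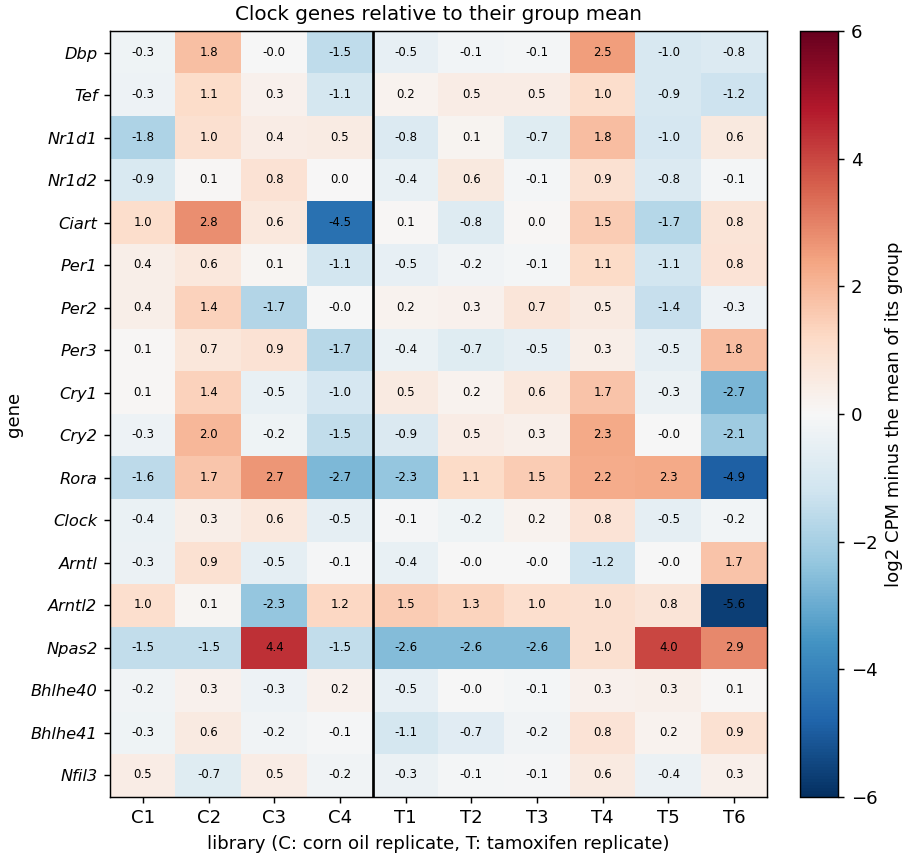
Log2 CPM of each clock gene minus the mean of its own group, with genes in rows and libraries in columns; red is above the group mean, blue below, and each cell prints its value. Corn oil replicate 2 and tamoxifen replicate 4 are red in most rows of Dbp, Tef, Per and Cry genes, while the rows of Bhlhe40 and Nfil3 are pale.

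Subtracting the group means removes the difference between groups, and 6 pairs were examined in this way over the 10 libraries. The narrow spread of Bhlhe40 and Nfil3, which can come with their choice, remains and may limit r for pairs with either gene. Dbp and Tef, D-box activators that peak together in tissues with a running clock, went up and down together, with Pearson's r of 0.85 (exact two-sided permutation within groups, p = 0.00208, adjusted p = 0.0125 over the 6 pairs) and Spearman's rho of 0.89 (exact permutation p = 0.00266, adjusted p = 0.0160). Without tamoxifen replicate 4 and corn oil replicate 2, the libraries with extreme Dbp, r was 0.85 (exact permutation p = 0.00556). With tamoxifen replicates 1 to 3 merged r was 0.91 (exact permutation, adjusted p = 0.0208). The adjusted p rose to 0.123 without tamoxifen replicate 5 and to 0.0958 without replicate 6 (exact permutation tests), with r at 0.83 and 0.87. Pairs of Dbp or Tef with Per or Cry genes were not among the 6. Relative to group means, Cry2 was at 2.01, 2.30 and -1.47 in corn oil replicate 2, tamoxifen replicate 4 and corn oil replicate 4. Dbp was at 1.80, 2.51 and -1.51 there. Moving together is therefore not shown to be particular to Dbp and Tef.

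The other 5 pairs did not pass. For Dbp with Nr1d2, r was 0.52 and rho 0.61 (exact permutation p = 0.169 and 0.0876, adjusted p = 0.506 and 0.263), and r fell to 0.33 without the 2 extreme libraries. For Dbp with Arntl, which peaks opposite to Dbp in tissues with a running clock, r was -0.26 and rho -0.27 (exact permutation p = 0.441 and 0.477, adjusted p = 0.659 and 0.477), and r was -0.39 without those libraries. For Dbp with its antagonist Nfil3, r was 0.12 and rho 0.35 (exact permutation p = 0.745 and 0.375, adjusted p = 0.745 and 0.450), and r was 0.59 without those libraries. For Nfil3 with Bhlhe40, r was -0.22 and rho -0.35 (exact permutation p = 0.549 and 0.355, adjusted p = 0.659 and 0.450), and r was 0.44 without corn oil replicates 2 and 4. It was -0.56 to 0.03 with each library left out in turn. With tamoxifen replicates 1 to 3 merged or dropped, r was -0.53 or -0.81 (exact permutation, adjusted p = 0.462 or 0.333). Within groups, libraries with more Nfil3 were therefore not shown to hold more Bhlhe40.

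**Figure D3:**
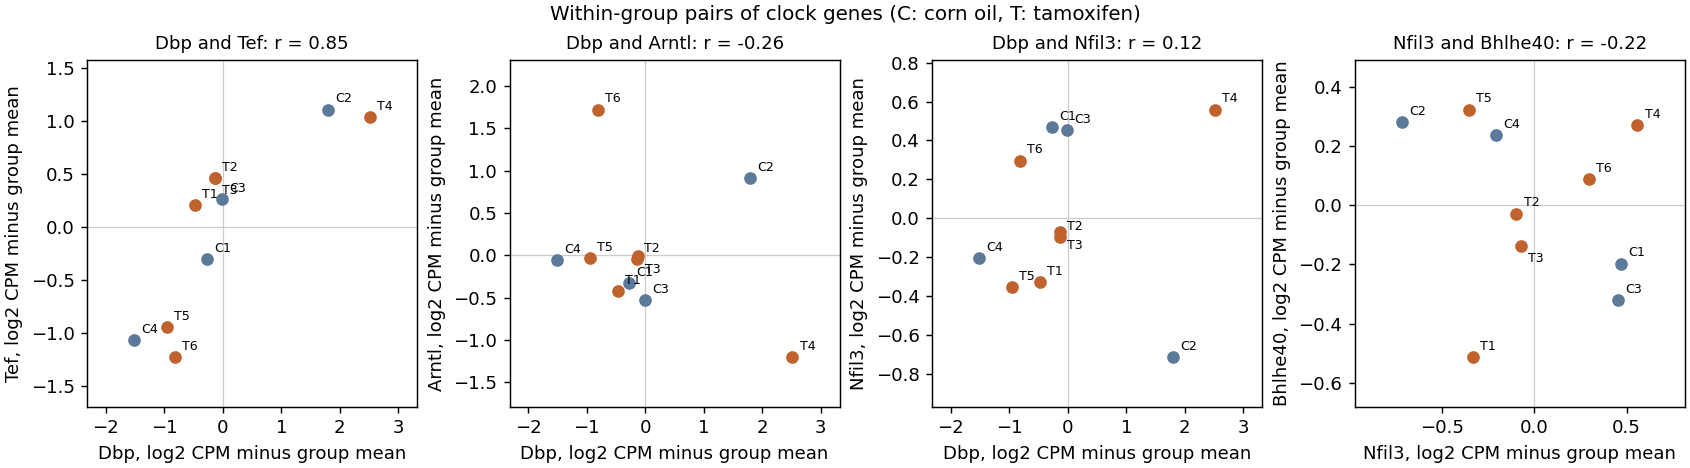
Log2 CPM minus the group mean for 4 pairs of genes, 1 point per library (C, corn oil; T, tamoxifen; number, replicate). Dbp and Tef lie along a rising line (r = 0.85), while Dbp with Arntl, Dbp with Nfil3 and Nfil3 with Bhlhe40 show no such line (r = -0.26, 0.12 and -0.22).

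The hypoxia list, 25 genes induced by low oxygen and here without Bhlhe40, was set beside Bhlhe40 because that gene responds to oxygen. Of its members 24 were higher with tamoxifen, with a median log2 fold change of 1.21 (0.80 without tamoxifen replicates 1 to 3), and 0 passed the FDR (16 had an unadjusted edgeR p under 0.05, where 9.7% of all tested genes did). Its most abundant members, Ldha and Aldoa of glycolysis, stood at 0.50 and 0.91 on the log2 scale. The list and Bhlhe40 parted in tamoxifen replicate 4, where the mean log2 CPM of the list was 5.26, within the corn oil range of 4.84 to 6.32 and below the 7.15 to 7.44 of the other tamoxifen libraries, while Bhlhe40 was at 598 normalised CPM, its second highest level. Within groups r between the list mean and Bhlhe40 was -0.37 and rho -0.38 (exact permutation p = 0.310 and 0.295, adjusted p = 0.620 and 0.450), and leaving out corn oil replicate 2 and tamoxifen replicate 4 gave an r of 0.23.

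Genes induced by glucocorticoids, hormones that also act on Per1, were higher with tamoxifen in 10 of 11 cases, with a median log2 fold change of 1.35 and 0 past the FDR (5 of 11 at an unadjusted edgeR p under 0.05, against 9.7% of all tested genes). The most abundant, the metallothioneins Mt1 and Mt2, had log2 fold changes of 0.76 and 1.02. Tamoxifen replicate 5 had a list mean of 6.13 on the log2 CPM scale, within the corn oil range of 4.92 to 6.82. The other tamoxifen libraries lay higher, at 7.50 to 7.92. Replicate 5 was also the lowest tamoxifen library for 6 of the 10 members (Nfil3, Per1, Per2, Nr1d2, Dbp and Clock) and the highest for Bhlhe40. Nfil3 there, at 57.8 normalised CPM, still lay above all corn oil libraries. The immediate early list, genes that react quickly to stress or handling, was higher in 15 of 20 cases, with a median of 0.22 and 0 past the FDR (3 of 20 unadjusted in edgeR, against 9.7%). It became 0.47 when corn oil replicate 4 was dropped, 0.33 or 0.34 when tamoxifen replicate 1 or 3 was, 0.39 and 0.63 with tamoxifen replicates 1 to 3 merged or dropped, and 0.05 with 11 of 20 higher in voom. Klf6 and Junb, the most abundant of them, had log2 fold changes of 1.25 and 0.26. The part of these programs in the levels of the clock genes was not tested.

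Among 31 other clock genes, listed by role with earlier results of these data known, 29 passed the filter. Of these, 0 passed the FDR in edgeR, DESeq2 (which gave a p-value before adjustment for 28) or voom with sample quality weights. Before adjustment, p was under 0.05 for 2 of 29 in edgeR, 3 of 28 in DESeq2 and 7 of 29 in voom, where 9.7%, 12% and 26.9% of all tested genes lay. Of 9 tested transcription regulators 8 were above 0, with a median log2 fold change of 0.81, where 49.3% of all tested genes were above 0. No test of a list was made. The activator Arntl, the partner of CLOCK, was the exception at -0.31 (SE 0.59, edgeR adjusted p 0.930). It stood at 13.3, 31.7, 11.5 and 16.1 normalised CPM with corn oil and ran from 5.09 in replicate 4 to 39.4 in replicate 6 with tamoxifen. Nr1d1, the REV-ERB alpha gene, averaged 27.7 ± 15.6 (SD, n = 4) and 52.9 ± 47.9 (SD, n = 6) in corn oil and tamoxifen libraries, with 145 in tamoxifen replicate 4, or 0.93 on the log2 scale (SE 0.64, edgeR adjusted p 0.708). Of the exon bases of Nr1d1, 8.55% are shared with Thra on the opposite strand.

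Ciart, a repressor of the CLOCK dimer listed in the table as Gm129, was at 1.94 on the log2 scale (SE 1.01, edgeR adjusted p 0.580), with corn oil replicate 4 at 0.0416 normalised CPM and the other corn oil libraries at 4.92 to 22.2. Per3, the third period gene, was at 0.08 (SE 0.73). Rora at 2.26 (SE 1.56), Arntl2 at 1.12 (SE 1.06) and Npas2, which can replace CLOCK, at 0.81 (SE 2.19) each had libraries at 0, and Npas2 was at 0 in 6 of 10. Rorb and Hlf did not pass the filter, and Hlf, the remaining D-box activator, was at 0 in all corn oil libraries and in 4 of 6 tamoxifen libraries. None of these differences passed the FDR in edgeR, with adjusted p of 0.580 to 0.987.

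Modifiers of clock proteins, among them casein kinases, ubiquitin ligases and corepressors, had a median log2 fold change of 0.32 over 14 genes. Of these 14, 10 were above 0 (49.3% of all tested genes) and 0 passed the FDR. The smallest p-values were those of the ubiquitin ligase subunit genes Fbxw11 and Fbxl21 (log2 fold changes 0.71 and 3.62, edgeR adjusted p 0.562 and 0.577), and Fbxl21 was under 1 normalised CPM in every corn oil library. All 6 output genes were above 0, against 49.3% of all tested genes, with a median of 0.85. Klf10, a transcriptional repressor, had 0.99 (SE 0.39, edgeR adjusted p 0.425) and Nampt, which makes NAD, 0.82 (SE 0.33, edgeR adjusted p 0.438), and neither passed the FDR.

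**Figure D4:**
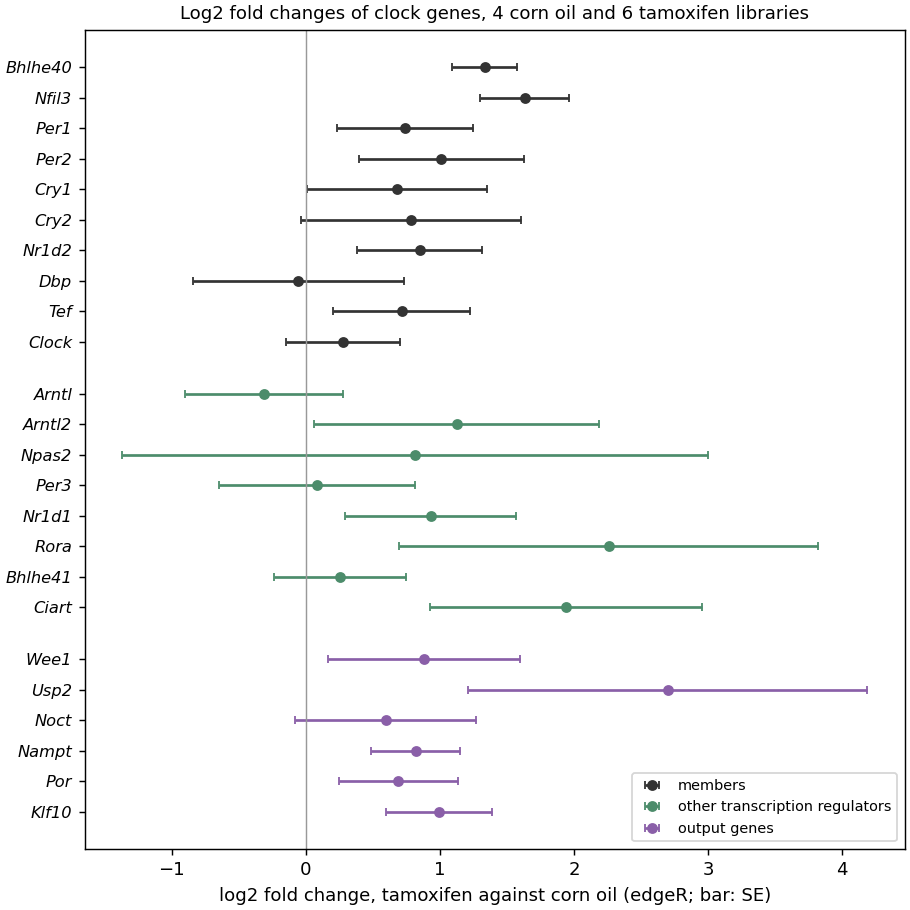
Log2 fold change, tamoxifen against corn oil, of the 10 members and of tested clock regulators and output genes outside them; points are edgeR estimates and bars their SE. Bhlhe40 (1.34) and Nfil3 (1.63) have the shortest bars among the larger values, and Dbp (-0.06) and Arntl (-0.31) lie below 0.

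Over the 10 libraries, the genes most like Bhlhe40 by Pearson's r of log2 CPM among the 13006 tested were Pxn (0.94), Abca3 (0.94), Slc4a4 (0.91), Alg9 (0.90) and Sqstm1 (0.90). Those most like Nfil3 were Mmp14 (0.98), Ptdss2 (0.96), Pik3ip1 (0.95), Ppp2r5a (0.94) and Vdac2 (0.94). Of these 10 genes all but Sqstm1 had groups that did not overlap, and their log2 fold changes ran from 0.51 for Vdac2 to 1.47 for Abca3. These r hold the difference between groups as well as the spread within them and are a description. Neither gene was among the 5 most like the other.

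The genes lie on GRCm38, the assembly behind the mm10 build named in the submitters' processing notes, as annotated in GENCODE M21. Bhlhe40 lies on chromosome 6 at 108660629 to 108666925 on the plus strand, Nfil3 on chromosome 13 from 52967209 to 52981073 (minus strand), Dbp on chromosome 7 at 45705088 to 45710203 on the plus strand and Tef on chromosome 15 at 81802421 to 81826863 on the plus strand. Per1 lies on chromosome 11, Per2 on 1, Cry1 on 10, Cry2 on 2, Nr1d2 on 14 and Clock on 5. RefSeq start sites on GRCm38.p6, each with 250 bases before and 50 after, were found for 8 of the 10 members in 12 windows. Bhlhe40 and Per2 had no entry.

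Windows were searched on both strands for the E-box CACGTG, the D-boxes TTATGTAA and TTACGTAA, the ROR element core TAGGTCA and the cyclic AMP element TGACGTCA. The E-box was in 4 of the 12 windows, those of Cry1, Per1 and 2 starts of Tef, and in 7.15% of all 32851 windows. The ROR element core was in 1 window, that of Nfil3, against 2.61% of all windows. Neither D-box (1.06% of all windows) nor cyclic AMP element (1.79%) was in a member window, and no window of Dbp, Nr1d2, Cry2 or Clock held any of these letters. The matches are shown because E-boxes, D-boxes and ROR elements are the sequences named above for clock proteins. Whether clock proteins act on the members through these matches was not measured. Each sequence is from RefSeq on GRCm38.p6, read 5′ to 3′ on the strand of the gene, with the match in capitals. A match is a description of the letters and not a shown binding site.
Cry1 E-box, chr10:85185069-85185154, minus strand, upstream of the gene: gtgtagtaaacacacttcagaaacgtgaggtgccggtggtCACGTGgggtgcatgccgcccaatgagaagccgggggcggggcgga
Per1 E-box, chr11:69098743-69098828, plus strand, in an intron of a longer transcript: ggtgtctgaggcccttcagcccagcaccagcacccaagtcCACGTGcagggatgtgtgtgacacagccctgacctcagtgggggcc
Tef E-box at the first start, chr15:81802534-81802563, plus strand, in an annotated exon: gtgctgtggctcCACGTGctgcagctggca
Tef E-box at the inner start, chr15:81811236-81811321, plus strand, in an intron of the longer transcript: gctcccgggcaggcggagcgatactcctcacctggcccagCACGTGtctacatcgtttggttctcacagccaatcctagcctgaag
Nfil3 ROR element core, given as its reverse complement, chr13:52981040-52981069, minus strand, in an annotated exon: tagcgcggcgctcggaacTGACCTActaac
The Cry1 match begins 60 bases before the start, the Per1 match 166, the Tef matches 127 and 138 and the Nfil3 match 12. Tef and Dbp, the pair that moved together within groups, did not share a match in these windows.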

How the data were processed

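The deposited table holds whole-number counts of reads for each gene symbol. The submitters' processing notes name the mm10 build, featureCounts 1.5.0-p3, STAR 2.5.2b and bcl2fastq 2.17. Not given in the sources used here are the annotation, the strand setting and the treatment of multi-mapping reads. The labels' protocols give a Qiagen RNeasy micro extraction, SMART-seq v4 amplification and Nextera XT libraries, none of which marks strand.

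The test was run on these counts in R 4.3.3 by edgeR 4.0.16, with filterByExpr (13006 of 15624 genes kept), TMM factors, the quasi-likelihood F test for tamoxifen against corn oil over all 10 libraries and Benjamini-Hochberg adjustment over all tested genes. SEs were taken as the log2 fold change over the square root of F. Log2 CPM used a prior count of 2. Within-group correlations used all 17280 arrangements of libraries within groups. Exon lengths are unions of GENCODE M21 exons.

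Members and lists were chosen with earlier results of these data known. All members, the listed transcription regulators of the clock (except 1 not reported here), the 2 modifiers and 2 output genes of smallest p, the 5 genes most like Bhlhe40 and Nfil3, and the 2 most abundant members of accompanying lists were named. Slc7a11, Krt18, Krt19 and 3 lymphocyte genes serve as checks.

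On simulated counts for tamoxifen against corn oil (12703 genes, 50 changed at each fold), the share recovered was 8% for 2-fold, 34% for 4-fold, 60% for 8-fold and 62% for 16-fold changes, and 4 unchanged genes were called. Alternatives were RLE scaling, no filter, DESeq2 1.42.0, limma 3.58.1 voom with sample quality weights, a prior count of 0.5, each library left out, and tamoxifen replicates 1 to 3 counted as 1 sample or left out.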

Additional observations from a re-analysis of the deposited data

Results flagged for a closer look

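In 10 of 44 comparisons of a library with the rest of its group, the highest or lowest library stood apart from the others. The comparisons covered the clock transcription genes and 3 accompanying lists. A rate of about 1 in 20 would hold for independent groups of normally distributed values. Normalised CPM need not follow that distribution and the groups share libraries, so the count is a description and not an excess over chance. Tamoxifen replicate 4 was highest for Dbp (99.5 normalised CPM, others 8.90 to 15.8), for Cry2 (115, others 5.23 to 32.1) and for Nr1d1 (145, others 19.7 to 60.1). Its hypoxia list mean was the lowest (5.26 in log2 CPM, against 7.15 to 7.44). In the corn oil group, replicate 2 led for Cry2 (56.2 normalised CPM, others 4.95 to 11.7) and for Bhlhe41 (22.5, others 12.7 to 14.4). Tamoxifen replicate 6 was highest for Arntl (39.4, others 5.09 to 11.7) and for Per3 (27.1, others 4.44 to 9.49). For Npas2, corn oil replicate 3 stood apart (5.92, the others at 0). Tamoxifen replicate 5 had the lowest glucocorticoid list mean (6.13 in log2 CPM, others 7.50 to 7.92).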

How the results depend on the processing

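The number of genes past the FDR, tamoxifen against corn oil, was 5 in edgeR, 243 in DESeq2, 1251 in voom with sample quality weights, 0 when tamoxifen replicates 1 to 3 were merged and 0 when they were dropped (701 and 602 in edgeR at an unadjusted p under 0.05). With each library left out in turn it was 0 to 11: 0 for corn oil replicates 1 and 3 and tamoxifen replicates 1 to 3 (894 to 1252 at an unadjusted p under 0.05), 1 for corn oil replicate 4, 2 for corn oil replicate 2, 7 for tamoxifen replicate 6, 9 for tamoxifen replicate 5 and 11 for tamoxifen replicate 4. The causes were not tested. Other clock genes past the FDR numbered 0 in all 16 alternatives. Of the members, 8 kept the sign of their log2 fold change in all 16, Cry2 in 15 and Dbp in 8. The within-group r of Dbp and Tef was 0.79 to 0.87 with each library left out and 0.98 without tamoxifen replicates 1 to 3, where 7 libraries remained and the exact permutation test gave an adjusted p of 0.0833. Its adjusted p ran from 0.00833 to 0.123 over 15 alternatives. The other 5 pairs passed in none of theirs. Depth limits Cry1 and Cry2 most in tamoxifen replicate 6, with 30 and 32 counts. No paired analysis was possible because the labels do not link any corn oil library to a tamoxifen library. The labels give no replicate numbers, and those used here follow the order of the samples.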

Other observations

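Ratios of clock genes within a library separated tamoxifen replicate 4 from the rest. The ratio of Nr1d1 to Arntl, repressor to target, was 28.6 in that library and 0.463 to 3.88 in the other 9. The ratio of Dbp to Arntl was 19.6 there and 0.249 to 2.19 in the others. The ratio of Nfil3 to Dbp, D-box repressor to activator, was 0.203 in corn oil replicate 2 and 1.10 in tamoxifen replicate 4, the libraries with the most Dbp. It was 1.61 to 2.91 in the other corn oil libraries and 4.41 to 9.27 in the other tamoxifen libraries. Apart from those 2 libraries the ratio did not overlap between groups, a split seen after the values were known and not tested. Nfil3 was chosen for its higher level with tamoxifen, and Dbp lay between 6.90 and 19.8 normalised CPM in these libraries. Nothing is therefore read from the split. The ratio of Bhlhe40 to its paralog Bhlhe41 was 10.6 to 16.1 with corn oil and 16.9 to 47.7 with tamoxifen. Bhlhe40 was chosen in the same way as Nfil3, so this gap is also a description only.

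Tamoxifen replicate 6, the shallowest library, combined high Arntl and Per3 with low Cry1 and Cry2. Among genes picked after their values were seen, it held the most Csnk1e, a kinase of PER proteins, at 301 normalised CPM against at most 166 in the other tamoxifen libraries, and the most Wee1, a cell cycle kinase under clock control, at 107 against 5.91 to 35.1.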
